A study of Mus musculus with 16 samples.

Results

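The 34 genes described here make cholesterol or handle sterols and fatty acids in cells. They run along the route from Hmgcs1 to Dhcr7 and take in the proteins that sense sterols, those that move, store or break them down, and the enzymes of fatty acid synthesis. Members were taken by gene symbol, with the brightest probe set standing for a gene that had more than 1. An array measurement was found for 33 of the 34, out of 19938 genes measured, and Soat1 was not analysed here. The expression values are on a log2 scale, so a difference of 1 is a 2-fold difference.

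RNA came from the subependymal zone (SEZ), the stem cell niche that lines the lateral ventricle, and from the core of the olfactory bulb (OB), the destination of the neurons born there. Each tissue gave 3 arrays from GlastCreERT2/Brg1 fl/fl mice, called cKO from here on, and 5 arrays from controls, at an age of 2.5 months and on a mixed background of C57BL/6 and CD1. The controls were GlastCreERT2/Brg1 fl/+ mice, except SEZ control replicate 5, for which the label reads Brg1 +/+. Every animal thus carried CreERT2, a recombinase that needs tamoxifen, driven from the Glast locus of astrocytes and neural stem cells, and the sources used here do not say when or whether it was induced. The labels call the arrays of a group biological replicates and give no sex. Brg1, encoded by Smarca4, is the motor subunit of a chromatin remodelling complex. Because whole tissue was profiled, cells in which Cre acted were measured together with all others, and a lower level from fewer cells of a type cannot be told apart from less RNA per cell.

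Cholesterol does not cross from blood into brain, so neural cells make their own. Acetyl-CoA is turned into mevalonate, isoprenoid units, squalene and finally sterols, with myelinating oligodendrocytes as the heaviest producers in young brain and astrocytes as suppliers of sterol to neurons. When membrane sterol is low, SCAP escorts the SREBP factors out of the endoplasmic reticulum, they are cut, and they switch on the synthesis genes; when it is high, the INSIG proteins hold SCAP back. Neurons dispose of surplus cholesterol by hydroxylating it with CYP46A1, and lipidated particles are loaded through the ABC transporters.

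The tissues could be told apart by their markers. Between control samples, 5 of 5 bulb interneuron markers were higher in OB (median difference 4.42), 6 of 6 markers of striatal projection neurons, which lie beside the SEZ, were lower (median -4.13), and 10 of 10 markers of myelinating oligodendrocytes were lower (median -1.17). SEZ control replicates 2 and 4 carried more RNA of cortical excitatory neurons than the other SEZ controls, with Slc17a7 at 10.58 and 11.06 against 8.44 to 8.98. Slc1a3, the Glast gene itself, was low on both cKO replicate 3 arrays (8.16 in SEZ and 8.85 in OB) and lay between 11.16 and 12.27 on the others. Smarca4 differed between cKO and control by 0.003 in OB (95% interval -0.12 to 0.13) and by -0.01 in SEZ (-0.14 to 0.12), but its probe set was not tied to the floxed exons and so checks nothing. The arrays numbered 1 among the cKO samples were unlike in the female-specific RNA Xist, at 12.40 in SEZ and 6.08 in OB, whereas in the other 7 same-numbered pairs both arrays were high (11.82 to 12.58) or both low (5.73 to 6.80).

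The lipid genes separated the tissues more than the genotypes. OB and SEZ differed in 11 of the 33 measured members in control mice (4 higher and 7 lower in OB), or 33.3%, beside 27.5% of all genes tested (12.6% higher and 14.9% lower). In cKO mice, which share no array with the controls, 9 members differed (4 higher and 5 lower), or 27.3%, beside 23.1% of all genes (10% higher and 13.1% lower). These shares lay near the background, so the set as a whole was not marked by more tissue differences than genes in general. The differences were spread unevenly over the route: 0 of the 6 mevalonate genes, 2 of the 9 genes from squalene to cholesterol, 2 of the 5 sterol sensors, 6 of the 7 measured genes of transport, storage and turnover, and 1 of the 6 fatty acid genes passed the test in controls. Between cKO and control no member passed in either tissue. A call here is an adjusted p under 0.05 from limma, with Benjamini-Hochberg adjustment over all 19938 genes.

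**Figure D1:**
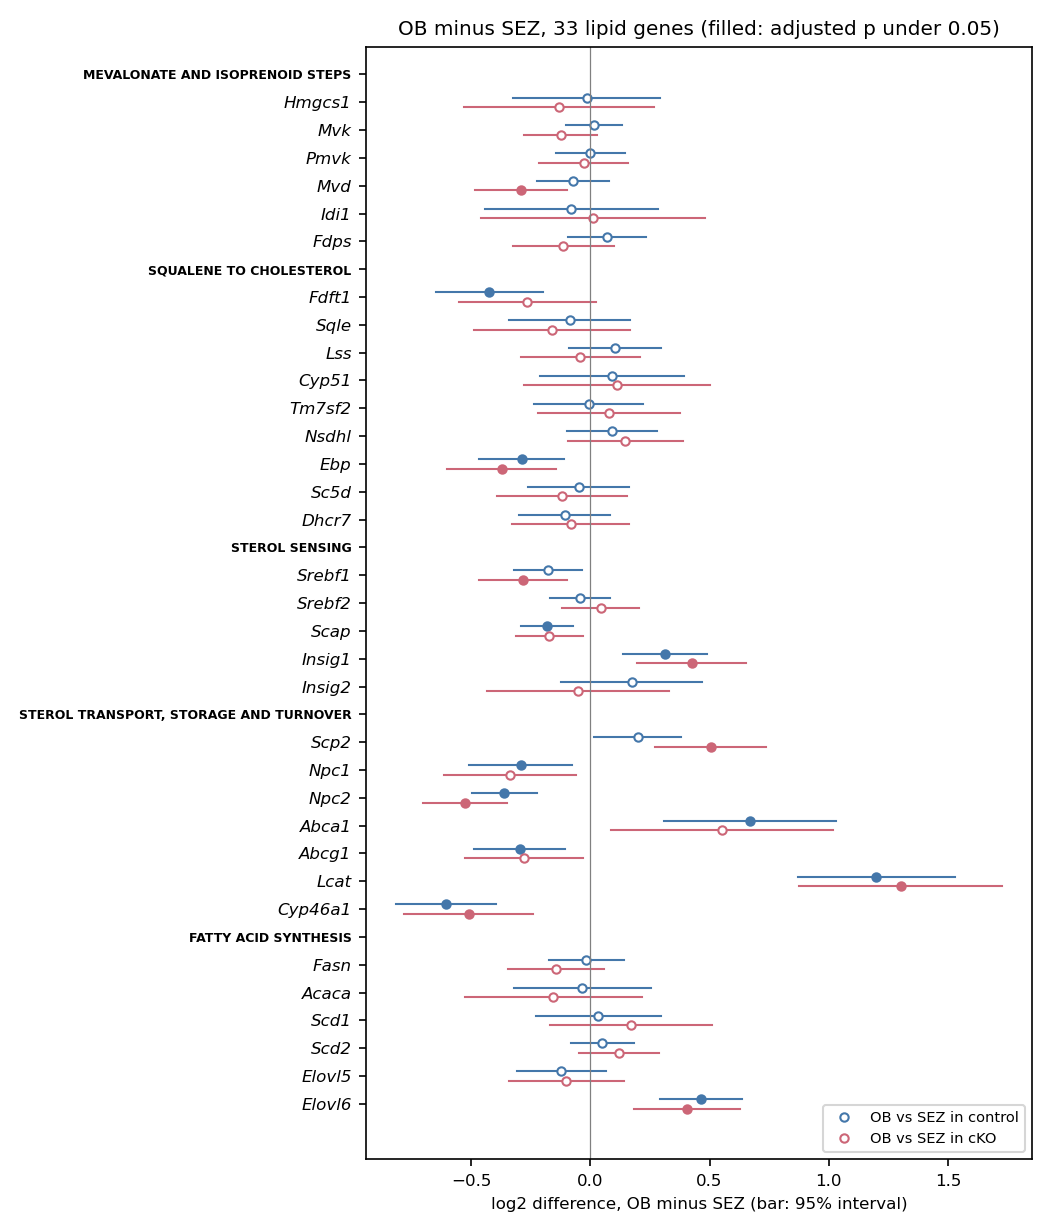
Difference in log2 expression between OB and SEZ for the 33 measured lipid genes, grouped by role, in control mice (blue) and in cKO mice (red); points are limma estimates, bars 95% intervals, and filled points passed an adjusted p of 0.05. Lcat stands farthest to the right in both genotypes (1.199 and 1.301), Cyp46a1 and Npc2 lie to the left in both, and the mevalonate genes sit around 0 in controls.

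The mevalonate genes were at like levels in the control tissues. Hmgcs1, which condenses the building blocks of the route, measured 10.76 ± 0.37 in SEZ (SD, n = 5) and 10.74 ± 0.21 in OB (SD, n = 5), a difference of -0.02 (SE 0.145). Mvk and Pmvk, the kinases that phosphorylate mevalonate, differed by 0.02 (SE 0.056) and 0.00 (SE 0.068), and Fdps, which joins isoprenoid units into farnesyl diphosphate, by 0.07 (SE 0.077). The members of this group with the largest differences were Idi1 and Mvd, and neither passed.

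Idi1, the isomerase that readies isoprenoid units for joining, read 8.27, 9.05, 8.40, 9.13 and 9.17 on SEZ control replicates 1 to 5. In OB controls it read 8.38, 8.72, 8.71, 8.83 and 8.97. SEZ cKO gave 8.59, 8.81 and 8.38, and OB cKO 8.69, 8.78 and 8.35. The 4 groups overlapped throughout, and SEZ controls split into a low pair (replicates 1 and 3) and 3 high arrays. The difference of OB from SEZ in controls was -0.08 (SE 0.172, adjusted p = 0.813), and a second, dimmer Idi1 probe set gave 0.01.

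Mvd, the decarboxylase that makes the first isoprenoid unit, read 8.78, 8.90, 8.63, 8.74 and 8.82 in SEZ controls and 8.64, 8.86, 8.56, 8.79 and 8.65 in OB controls. In SEZ cKO it read 8.93, 8.98 and 8.89, and in OB cKO 8.61, 8.79 and 8.53. The control tissues overlapped, whereas all 3 SEZ cKO arrays lay above all 3 OB cKO arrays. OB was thus lower than SEZ in cKO mice by -0.29 (SE 0.092, adjusted p = 0.0291), against -0.07 (SE 0.071, adjusted p = 0.524) in controls, and the test of the difference between these (0.22, SE 0.116, adjusted p = 1.00) did not pass. The cKO call was lost without OB cKO replicate 1 (adjusted p = 0.0934) or 3 (0.128) and without SEZ cKO replicate 1 (0.0705) or 2 (0.0892), and held under 22 of 30 alternative settings in all.

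Among the 9 genes from squalene to cholesterol, Fdft1 and Ebp were lower in OB than in SEZ of control mice. Fdft1, squalene synthase, commits carbon to sterols. Its levels were 11.19, 11.13, 11.24, 11.13 and 11.26 in SEZ controls and 10.97, 10.55, 10.95, 10.59 and 10.76 in OB controls. SEZ cKO arrays read 10.95, 11.05 and 10.91, and OB cKO arrays 11.02, 10.37 and 10.72. Every SEZ control lay above every OB control, and the SEZ cKO arrays lay below every SEZ control. The tissue difference was -0.42 in controls (SE 0.106, adjusted p = 0.00545) and -0.26 in cKO (SE 0.137, adjusted p = 0.196), where it passed without OB cKO replicate 1 (-0.42, adjusted p = 0.0335). A second Fdft1 probe set gave -0.52 in controls (adjusted p = 0.00254) and -0.20 in cKO (adjusted p = 0.400).

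Ebp, the sterol isomerase, read 9.10, 9.28, 9.09, 9.04 and 9.23 in SEZ controls against 8.98, 8.69, 8.86, 8.83 and 8.93 in OB controls. The cKO arrays read 9.26, 9.12 and 8.86 in SEZ and 8.79, 8.80 and 8.53 in OB. The tissues did not overlap in either genotype. The difference was -0.29 in controls (SE 0.084, adjusted p = 0.0153) and -0.37 in cKO (SE 0.108, adjusted p = 0.0186). Without SEZ control replicates 2 and 4, the pair with cortical RNA, the control value had an adjusted p of 0.0520, and the cKO call was lost without OB cKO replicate 3 (0.105) or SEZ cKO replicate 1 (0.107) or 2 (0.0613). Markers of myelinating oligodendrocytes, 10 of 10 of them, were lower in OB too, their mean level running from 9.91 to 10.18 on OB controls and from 10.85 to 11.61 on SEZ controls, and their part in the Fdft1 and Ebp differences was not tested.

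The other 7 genes of this stretch did not pass in either genotype. Their differences of OB from SEZ in controls ran from -0.11 for Dhcr7, the reductase of the last step, to 0.10 for Lss, which closes the sterol rings. Sqle, squalene epoxidase and a slow step of the route, gave -0.09, Cyp51, the sterol demethylase, 0.09, Nsdhl, which also works at demethylation, 0.09, Sc5d, the desaturase, -0.05, and Tm7sf2, a sterol reductase, -0.01. Over the 15 genes from Hmgcs1 to Dhcr7 the median difference in controls was -0.02, beside 0.0034 over all genes.

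Among the sterol sensors, Insig1 was higher and Scap lower in OB of control mice. Insig1, a retention protein that is itself induced by SREBP, read 10.39, 10.49, 10.34, 10.43 and 10.18 in SEZ controls and 10.69, 10.85, 10.74, 10.56 and 10.56 in OB controls. Its cKO levels were 10.23, 10.12 and 10.46 in SEZ and 10.84, 10.61 and 10.64 in OB. OB lay above SEZ on every array of the same genotype. The difference was 0.31 (SE 0.084, adjusted p = 0.00892) in controls and 0.43 (SE 0.108, adjusted p = 0.00765) in cKO. The cKO call was lost without cKO replicate 1 of both tissues (limma adjusted p = 0.121).

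Scap, the escort of the SREBP factors, read 11.04, 10.92, 11.03, 10.93 and 10.92 in SEZ controls and 10.84, 10.77, 10.80, 10.80 and 10.72 in OB controls. In cKO it read 10.97, 10.92 and 11.03 in SEZ and 10.76, 10.84 and 10.81 in OB. The tissues did not overlap in either genotype, with a spread of 0.04 to 0.06 (SD) in each group. The difference was small, -0.18 in controls (SE 0.051, adjusted p = 0.0123) and -0.17 in cKO (SE 0.066, adjusted p = 0.0738).

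Srebf1, the SREBP gene tied most to fatty acid synthesis, was lower in OB by -0.18 in controls (SE 0.068, adjusted p = 0.0634), which did not pass, and by -0.28 in cKO (SE 0.088, adjusted p = 0.0270), which did, though not without OB cKO replicate 1 (0.119) or SEZ cKO replicate 1 (0.10003); the control value passed without OB control replicate 2 (0.0170) or SEZ control replicate 1 (0.0426). Srebf2, tied most to sterol synthesis, stayed within 11.31 to 11.36 in its 4 group means and differed by -0.04 in controls (95% interval -0.17 to 0.08). Insig2, which does not need SREBP for its expression in the same way as Insig1, gave 0.17 in controls (SE 0.140) and -0.05 in cKO (SE 0.180), and neither passed.

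Genes of sterol transport, storage and turnover gave 6 of the 11 members called between tissues in controls and 4 of the 9 called in cKO. Lcat, which esterifies cholesterol on lipoprotein particles, was 2.30-fold higher in OB of controls. It read 9.50, 9.67, 9.28, 9.68 and 9.68 in SEZ controls and 10.62, 11.18, 10.96, 10.71 and 10.32 in OB controls. The cKO arrays read 9.79, 9.41 and 9.07 in SEZ and 10.95, 10.76 and 10.48 in OB. The lowest OB array lay above the highest SEZ array over both genotypes. The difference was 1.199 in controls (SE 0.155, adjusted p = 1.10e-05) and 1.30 in cKO (SE 0.200, adjusted p = 0.000102). Astrocytes are a source of Lcat, and of 8 astrocyte markers 1 was higher and 1 lower in OB of controls (median -0.03). The part of astrocytes in the Lcat difference was not tested.

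Abca1, the pump that loads cholesterol onto apolipoproteins, read 9.09, 9.86, 9.34, 9.61 and 9.87 in SEZ controls and 9.99, 10.54, 9.78, 10.31 and 10.48 in OB controls. SEZ cKO read 9.95, 9.69 and 9.56, and OB cKO 10.06, 10.58 and 10.21. OB control replicate 3 fell within the SEZ control range, so the control groups overlapped, and the cKO groups did not. OB was higher by 0.67 in controls (SE 0.170, adjusted p = 0.00643), and the 0.55 in cKO (SE 0.220, adjusted p = 0.0862) did not pass. Abcg1, a partner in efflux to lipidated particles, differed the other way, by -0.30 in controls (SE 0.091, adjusted p = 0.0207) and -0.28 in cKO (SE 0.117, adjusted p = 0.102). The Abcg1 call in controls was lost when either replicate 1 (adjusted p = 0.0626) or replicate 3 (0.0523) of OB, or replicate 5 of SEZ (0.0564), was left out, and when the 2 SEZ arrays with cortical RNA were (0.120). In cKO it was gained without OB cKO replicate 2 (0.0258) or SEZ cKO replicate 3 (0.0456).

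Cyp46a1, the cholesterol 24-hydroxylase of neurons, was lower in OB. It read 11.94, 11.52, 11.98, 11.73 and 11.66 in SEZ controls against 11.34, 10.90, 11.30, 11.11 and 11.16 in OB controls. The cKO levels were 11.72, 11.71 and 12.003 in SEZ and 11.30, 11.26 and 11.35 in OB. The tissues did not overlap, and the difference was -0.60 in controls (SE 0.099, adjusted p = 0.000138) and -0.51 in cKO (SE 0.128, adjusted p = 0.00702). The cKO call was lost without cKO replicate 3 of both tissues (limma adjusted p = 0.0685). Of 5 pan-neuronal markers 3 were higher and 0 lower in OB of controls (median 0.23), and the striatal neuron markers were lower, as given above; their part in the Cyp46a1 difference was not tested.

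Npc2 and Npc1 hand cholesterol out of the lysosome, Npc2 as the soluble carrier and Npc1 in the membrane. Npc2 read 9.56, 9.62, 9.60, 9.67 and 9.65 in SEZ controls and 9.30, 9.35, 9.14, 9.29 and 9.22 in OB controls. In cKO it read 9.74, 9.52 and 9.70 in SEZ and 8.99, 9.26 and 9.14 in OB. The tissues were apart in both genotypes, by -0.36 in controls (SE 0.064, adjusted p = 0.000304) and -0.53 in cKO (SE 0.083, adjusted p = 0.000129). Microglia are a rich source of Npc2, and 4 of 5 microglial markers were lower in OB of controls too (median -0.31); their part in the Npc2 difference was not tested. Npc1 was lower by -0.29 in controls (SE 0.102, adjusted p = 0.0415) and by -0.34 in cKO (SE 0.131, adjusted p = 0.0778), and its control call was kept on leaving out a single array in 8 of 16 cases. It was lost without OB control replicates 1 (adjusted p = 0.103), 3 (0.0747) or 4 (0.0791), SEZ control replicates 2 (0.117), 4 (0.0698) or 5 (0.118), OB cKO replicate 1 (0.0508) or SEZ cKO replicate 2 (0.0503); without OB cKO replicate 2 the cKO value passed (0.0474).

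Of the fatty acid genes, Elovl6 alone passed in controls, and it passed in cKO as well. Elovl6, which lengthens the palmitate made by fatty acid synthase, read 11.28, 10.91, 11.16, 11.17 and 11.10 in SEZ controls and 11.60, 11.65, 11.48, 11.63 and 11.56 in OB controls. Its cKO levels were 11.20, 11.17 and 10.97 in SEZ and 11.65, 11.60 and 11.30 in OB. OB was above SEZ on every array, by 0.46 in controls (SE 0.081, adjusted p = 0.000282) and 0.40 in cKO (SE 0.105, adjusted p = 0.00920). Without OB cKO replicate 1 the cKO value had an adjusted p of 0.0562.

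Elovl5, which lengthens polyunsaturated fatty acids, read 11.32, 11.56, 11.34, 11.47 and 11.56 in SEZ controls and 11.37, 11.52, 11.26, 11.24 and 11.25 in OB controls. In cKO it read 11.44, 11.44 and 11.28 in SEZ and 11.49, 11.34 and 11.02 in OB. The groups overlapped, and the control difference of -0.12 (SE 0.088, adjusted p = 0.373) did not pass. Fasn, fatty acid synthase, differed by -0.02, Acaca, which makes its substrate, by -0.03, and the desaturases Scd1 and Scd2 by 0.03 and 0.05.

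Of the 11 members called in controls, 6 were also called in cKO with the same sign (Lcat, Elovl6, Insig1, Cyp46a1, Npc2 and Ebp), or 54.5%, beside 73.9% of all genes called in controls. All 11 had the same sign of estimate there, beside 99.5% of all such genes. Over the 33 members, called or not, 25 had the same sign in both genotypes (75.8%, beside 79.1% of all genes) and 7 the opposite sign. A further 3 were called in cKO and not in controls (Mvd, Srebf1 and Scp2), and 19 in neither; no member passed the test of whether its tissue difference differed between genotypes. Groups did not overlap between tissues for 8 members in controls, beside 21.9% of all genes, and for 13 members in cKO, beside 33.3% of all genes. The calls for Lcat and Npc2 held under all 30 alternatives in both genotypes, and those for Cyp46a1, Elovl6, Fdft1, Abca1, Insig1 and Scap held under all 30 in controls.

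Other genes of sterol and fatty acid biology, 29 measured of 37 listed, gave 5 higher and 8 lower in OB of controls, or 44.8%, beside 27.5% of all genes. The widest were Fabp7, the fatty acid binding protein of radial glia and olfactory glia, at 13.58 ± 0.27 in OB against 11.85 ± 0.11 in SEZ (SD, n = 5 each, difference 1.72, adjusted p = 2.47e-09), Abca7, a lipid transporter, with a difference of 0.65 (adjusted p = 6.80e-07), and Me1, a source of NADPH, with 0.34 (adjusted p = 0.0366). Lower in OB were Rxra, a nuclear receptor that pairs with the sterol-sensing LXRs, by -0.82 (adjusted p = 2.51e-07), Pltp, which transfers phospholipid, by -0.81 (adjusted p = 0.0110), and Msmo1, the sterol methyl oxidase between Cyp51 and Nsdhl in the route, by -0.64 (adjusted p = 0.00117). The Me1 call was lost without any single OB control array (adjusted p = 0.0504 to 0.0843) and without SEZ control replicate 1 (0.0902) or 3 (0.0990). In cKO mice 2 were higher and 6 lower, or 27.6%, beside 23.1% of all genes.

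Between cKO and control, no member was called in OB or SEZ, and none in the test of whether the effect differed between tissues. In OB 0.0451% of all genes passed (9, all lower), in SEZ 0%, and in the difference 0.00502% (1 gene). At an unadjusted p under 0.05, limma gave 1 member and 700 of all genes in OB, 1 member and 492 of all genes in SEZ, and 1 member and 296 of all genes for the difference. The single member was Scp2 each time. Groups did not overlap for 0 of 33 members in OB, beside 2.53% of all genes, and for 2 of 33 in SEZ (Scp2 and Fdft1), beside 2%. The size of difference was ordinary: the median absolute value over members was 0.07 in OB and in SEZ, beside 0.07 and 0.06 over all genes.

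**Figure D2:**
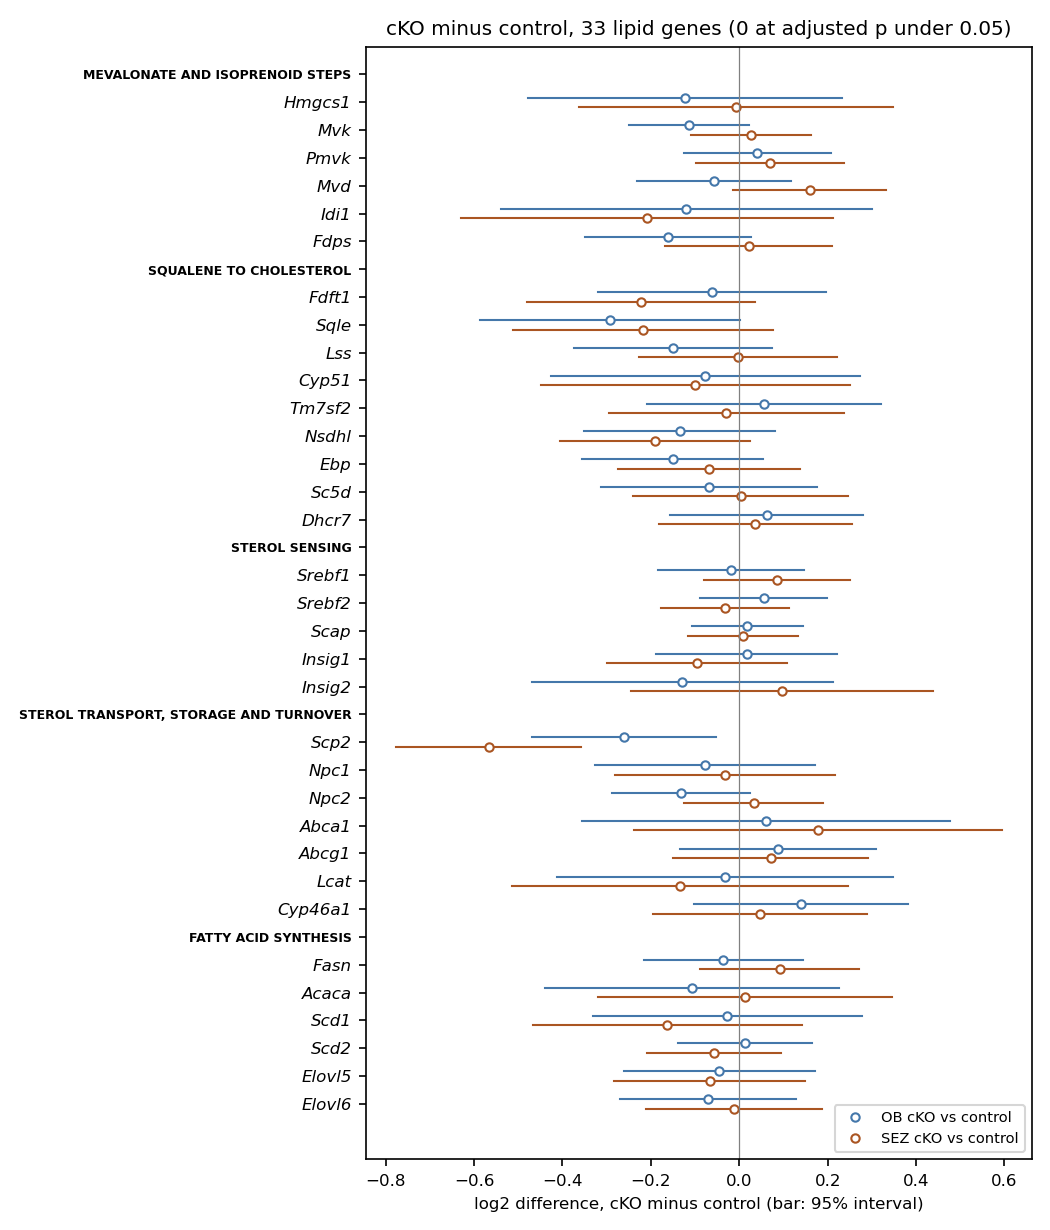
Difference in log2 expression between cKO and control for the 33 measured lipid genes, grouped by role, in OB (blue) and SEZ (brown); points are limma estimates and bars 95% intervals without adjustment for the number of genes, and open points did not pass an adjusted p of 0.05. Scp2 is the single gene whose interval stays below 0 in both tissues, with SEZ at -0.57 and OB at -0.26.

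Scp2, sterol carrier protein 2, is a peroxisomal protein that binds sterols and lipids and shares its gene with a thiolase of bile acid and branched fatty acid breakdown. It was chosen for display because an earlier analysis of these data had already shown its low p in SEZ, so what follows describes it. It read 7.83, 8.09, 7.89, 8.17 and 7.67 on SEZ control replicates 1 to 5 and 7.32, 7.41 and 7.36 on the SEZ cKO arrays. In OB it read 8.18, 8.10, 8.16, 8.23 and 7.97 in controls and 7.85, 7.98 and 7.78 in cKO. All 3 SEZ cKO arrays lay below all 5 SEZ controls, while in OB cKO replicate 2 was level with control replicate 5. The lowest SEZ control, replicate 5, is the array labelled Brg1 +/+.

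The SEZ difference of Scp2 was -0.57 (SE 0.098, 95% interval -0.78 to -0.36), which is 1.48-fold lower. Its unadjusted p of 2.69e-05 ranked 2 of 19938 genes, and its adjusted p was 0.268. Some cell type markers had SEZ estimates below 0 too. For 6 of 6 neuroblast markers (median -0.37, 0 called) the mean level lay at 9.37 to 9.40 in cKO and 9.56 to 9.96 in controls. The 4 of 4 cortical excitatory markers below 0 (median -0.59, 0 called) had a mean of 8.26 and 8.62 on SEZ control replicates 2 and 4. On the other SEZ controls that mean was 6.98 to 7.17, which overlapped the 6.86 to 7.13 of SEZ cKO. Also below 0 were 4 of 5 pan-neuronal (median -0.07), 4 of 5 bulb interneuron (median -0.05) and 8 of 10 myelin markers (median -0.03). Above 0 were 5 of 5 mitral and tufted cell markers (median 0.08) and 4 of 5 ependymal markers (median 0.06), among others. The part of any of these cell types in the Scp2 difference was not tested. In OB the difference was -0.26 (SE 0.098, 95% interval -0.47 to -0.05, adjusted p = 1.00), and there 6 of 6 neuroblast markers were below 0 as well (median -0.26, 2 called), with mean levels of 10.20 to 10.35 in cKO and 10.68 to 10.93 in controls. The SEZ difference minus the OB difference was -0.31 (SE 0.139, 95% interval -0.60 to -0.01, adjusted p = 1.00). Scp2 was not called in SEZ under any of the 29 alternatives that measured it, which gave differences from -0.63 to -0.44 and adjusted p from 0.0568 to 1.00. The smallest difference came from leaving out SEZ control replicates 2 and 4, the arrays with cortical RNA, on which Scp2 was highest. Between tissues, Scp2 was higher in OB by 0.51 in cKO (SE 0.110, adjusted p = 0.00247), a call kept under all 29 alternatives, and by 0.20 in controls (SE 0.085, adjusted p = 0.103), where it passed without SEZ control replicate 4 (0.0289).

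**Figure D3:**
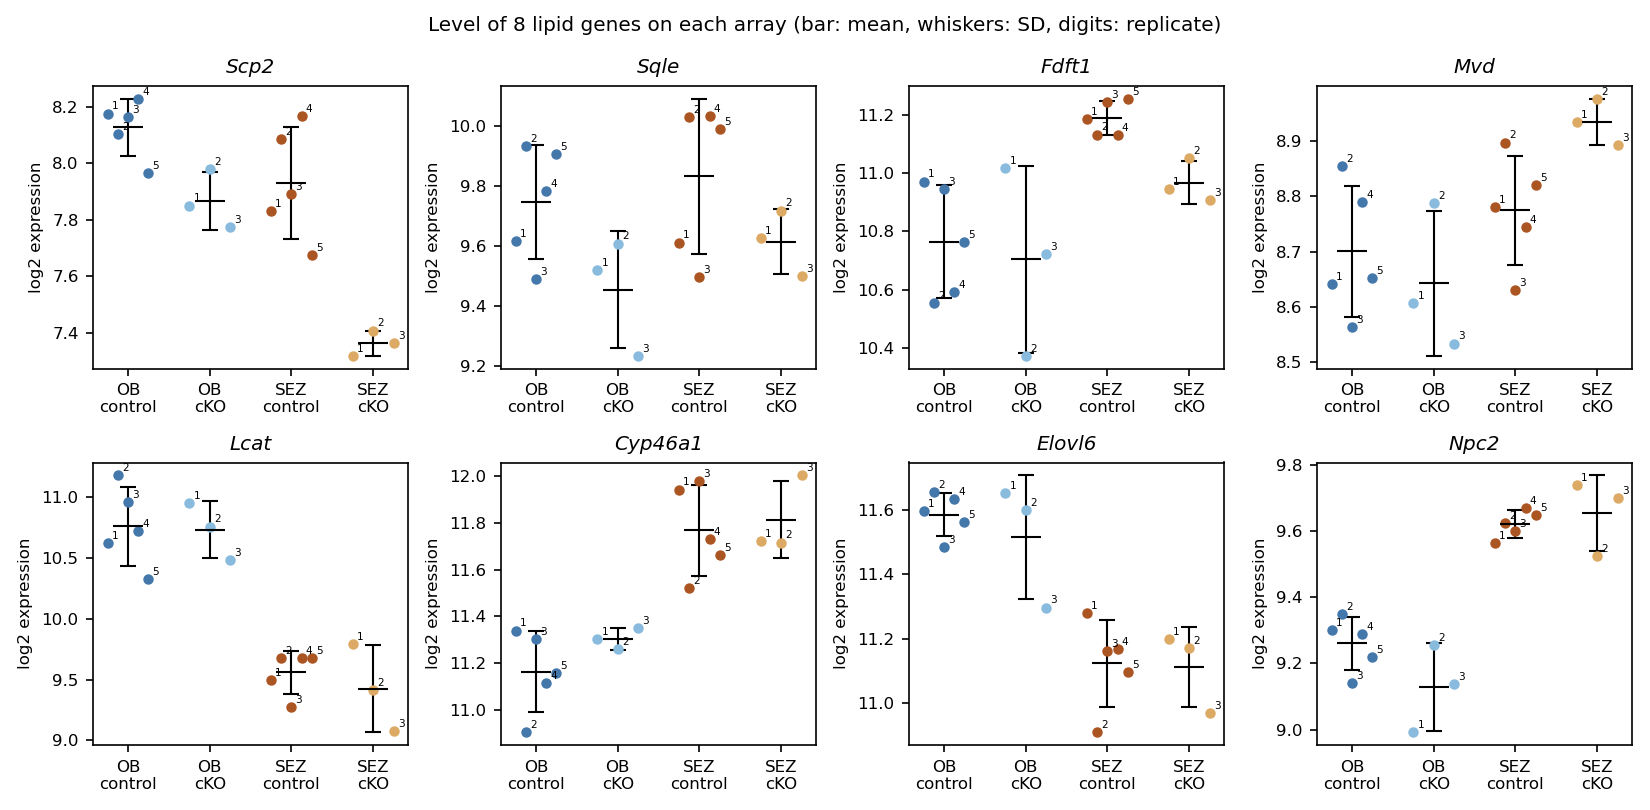
Log2 expression of Scp2, Sqle, Fdft1, Mvd, Lcat, Cyp46a1, Elovl6 and Npc2 on each of the 16 arrays; each point is an array with its replicate number, the horizontal bar is the group mean and the whiskers are the SD, over 5 control or 3 cKO arrays. Scp2 lies at 7.32 to 7.41 in SEZ cKO, below all other arrays, and Lcat separates OB from SEZ with no overlap.

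After Scp2, the members with the lowest p were Sqle and Fdps in OB, Mvd and Nsdhl in SEZ, and Mvd and Npc2 for the difference between tissues. Sqle read 9.62, 9.93, 9.49, 9.78 and 9.91 in OB controls and 9.52, 9.61 and 9.23 in OB cKO, and 9.61, 10.03, 9.49, 10.04 and 9.99 in SEZ controls and 9.63, 9.72 and 9.50 in SEZ cKO. The groups overlapped in each tissue. The difference was -0.29 in OB (SE 0.139, 95% interval -0.59 to 0.0013) and -0.22 in SEZ (SE 0.139, 95% interval -0.51 to 0.08), with adjusted p = 1.00 in both.

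Fdps read 9.93, 10.23, 10.10, 10.28 and 10.16 in OB controls and 9.97, 10.12 and 9.85 in OB cKO, against 10.03, 10.18, 9.89, 10.17 and 10.09 in SEZ controls and 10.12, 10.10 and 10.06 in SEZ cKO. Its groups overlapped, with a difference of -0.16 in OB (SE 0.089, adjusted p = 1.00) and 0.02 in SEZ (SE 0.089). Nsdhl read 9.43, 9.64, 9.55, 9.63 and 9.70 in SEZ controls and 9.48, 9.37 and 9.35 in SEZ cKO, and 9.67, 9.95, 9.56, 9.61 and 9.61 in OB controls and 9.75, 9.57 and 9.31 in OB cKO. Only SEZ control replicate 1 lay within the SEZ cKO range, and the difference there was -0.19 (SE 0.102, adjusted p = 1.00). Fdft1, whose SEZ groups did not overlap, differed by -0.22 (SE 0.122, adjusted p = 1.00). Its second probe set gave -0.30 in SEZ (SE 0.135) and 0.02 in OB, where the probe set used gave -0.06, and none of these passed. Mvd was the member with the next lowest p in SEZ, at 0.16 (SE 0.082, adjusted p = 1.00), and in the difference between tissues it was followed by Npc2 (0.16, SE 0.105, adjusted p = 1.00).

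For the remaining genes the intervals bound what could have gone unseen. In SEZ the 95% intervals of Srebf2 (-0.18 to 0.11), Scap (-0.12 to 0.13) and Mvk (-0.11 to 0.16) were narrow, and those of Idi1 (-0.63 to 0.21), Abca1 (-0.24 to 0.59) and Lcat (-0.51 to 0.25) were wide. In OB, 23 of the 33 estimates were below 0, with a median of -0.06 beside -0.0053 over all genes, of which 52.1% were below 0. Among genes above the median level, 22 of 32 members and 63.2% of all genes were below 0 (medians -0.06 and -0.0386). With cyclic loess 18 of 33 members (median -0.01) and 48.2% of all genes (median 0.0041) were below 0. Of the 15 genes from Hmgcs1 to Dhcr7, 12 were below 0 in OB (median -0.11) and 9 in SEZ (median -0.0073), beside 52.1% and 48% of all genes. With cyclic loess 12 of the 15 were below 0 in OB (median -0.06) and 7 in SEZ (median 0.01). Without OB cKO replicate 3, the array low in Slc1a3, 16 of 33 members and 9 of the 15 were below 0 in OB, with medians of 0.0082 and -0.02. None of the other 29 pathway genes was called; Hsd17b7, another sterol reductase of the route, had the lowest p among them, with -0.45 in OB (SE 0.130, adjusted p = 1.00), and -0.22 without OB cKO replicate 3.

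Within groups, many lipid genes varied together from array to array, and they did so with a pattern found in genes outside the set. The strongest component of the within-group differences, computed without the members, held 41% of the variance and put OB control, SEZ control and OB cKO replicates 1 and 3 and SEZ cKO replicate 3 on its negative side and the other 9 arrays on its positive side. Of the members, 19 of 33 were higher on all 3 positive SEZ controls than on both negative ones (57.6%, beside 24.7% of all genes), and 14 of 33 in OB controls (42.4%, beside 21.2%). The reverse held for 5 members in SEZ (15.2%, beside 29.8%) and 6 in OB (18.2%, beside 16.6%). In both tissues the same 13 members were higher on the positive side: Hmgcs1, Idi1, Fdps, Sqle, Lss, Cyp51, Sc5d, Srebf1, Insig2, Abca1, Abcg1, Fasn and Acaca, beside 13.5% of all genes. The sides were taken from the data and are not groups of the study, and the counts carry no test.

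**Figure D4:**
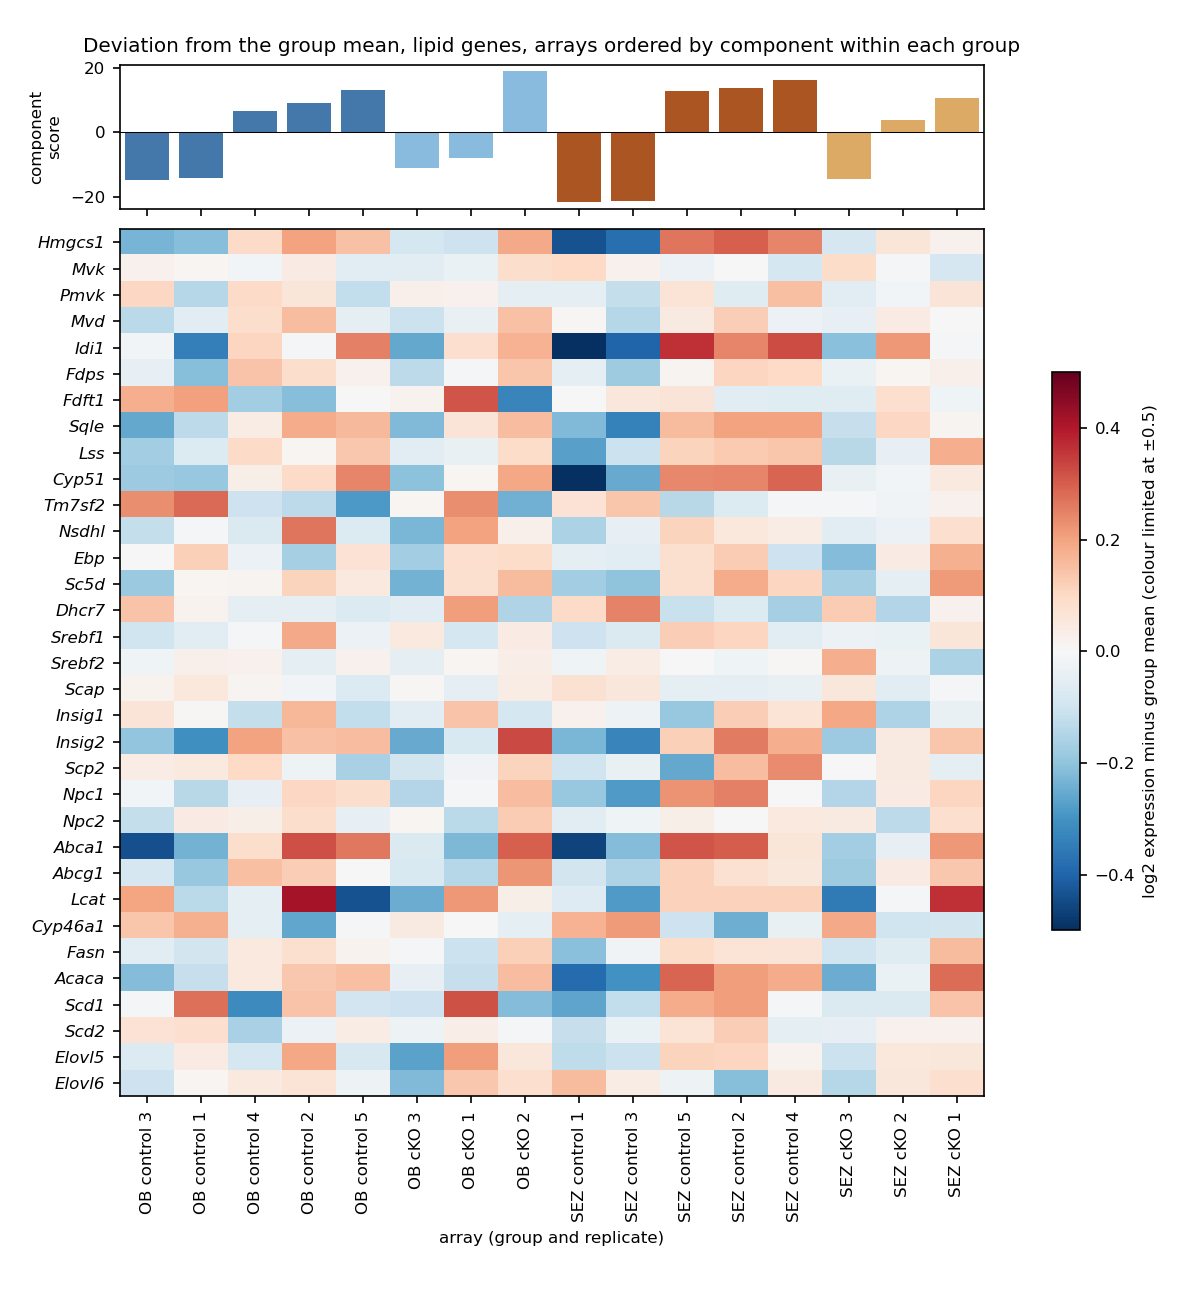
Upper panel, score of the strongest within-group component on each of the 16 arrays, computed from genes outside the set; lower panel, log2 expression of each lipid gene minus its group mean on the same arrays, in colour. Hmgcs1, Sqle, Cyp51, Abca1 and Acaca are blue on the negative control arrays and red on the positive ones, and Tm7sf2, Dhcr7 and Cyp46a1 run the other way.

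In SEZ controls 5 members (Hmgcs1, Idi1, Cyp51, Abca1 and Acaca) had an SD above 0.3, against 1 or 2 in each other group, while the median SD over members was 0.123 there and 0.123 to 0.151 over the 4 groups. Over all genes the median SD was highest in SEZ controls, at 0.139 against 0.120 to 0.125 in the other groups. The share of all genes with an SD above 0.3 was not counted, so the 5 are not shown to be unusual. Hmgcs1 read 10.32 and 10.38 on replicates 1 and 3 and 11.06, 11.01 and 11.03 on replicates 2, 4 and 5; in OB controls it read 10.53 and 10.51 against 10.95, 10.84 and 10.89. Cyp51 read 8.10 and 8.37 against 8.87, 8.91 and 8.86 in SEZ controls. These gaps within a genotype exceeded the differences between genotypes for the same genes, -0.01 for Hmgcs1 and -0.10 for Cyp51 in SEZ. Both genes were picked for their wide spread in SEZ controls, and the arrays were split by the data. Wide gaps were thus favoured by the choice. The mean of the 10 myelin markers moved the same way in SEZ controls, at 10.94 and 10.85 on replicates 1 and 3 against 11.61, 11.21 and 11.53, but hardly in OB controls, at 9.94 and 9.95 against 10.03, 9.91 and 10.18. The part of myelinating cells in the shared variation was not tested.

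Compared within 1 side at a time, with as few as 1 cKO array, Scp2 in SEZ was lower in cKO by -0.61 on the positive side and by -0.50 on the negative side, and in OB by -0.12 and -0.36. Sqle was lower by -0.35 and -0.05 in SEZ and by -0.27 and -0.18 in OB. The median over members in OB was -0.02 on the positive and -0.05 on the negative side. These values have no test. For Scp2 in SEZ every cKO array lay below every control. Its sign there was therefore fixed on either side and checks nothing.

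The promoters of members that varied together are shown for the genes with the widest gaps, with that of Scp2 for comparison. The windows run from 250 bases before to 50 after the start of transcription, from RefSeq with build GRCm38.p6, in which 27 of the 34 members had an entry. Hmgcs1 is shown because its window alone held a match to the sterol element string searched, and Idi1, Cyp51 and Scp2 were picked after their values were seen. Capitals mark matches on either strand to the sterol regulatory element TCACNCCAC, the NF-Y box CCAAT and the GC box GGGCGG. In the windows shown no match overlaps another.
Hmgcs1 (chr13:119690101-119690400, plus strand): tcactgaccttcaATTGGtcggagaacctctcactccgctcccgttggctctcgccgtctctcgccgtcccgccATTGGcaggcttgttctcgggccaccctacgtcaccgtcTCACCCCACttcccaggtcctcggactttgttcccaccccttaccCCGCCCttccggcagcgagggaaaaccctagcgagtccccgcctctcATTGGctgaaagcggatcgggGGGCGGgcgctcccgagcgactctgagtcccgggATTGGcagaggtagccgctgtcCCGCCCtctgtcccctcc
Idi1 (chr13:8885356-8885655, plus strand): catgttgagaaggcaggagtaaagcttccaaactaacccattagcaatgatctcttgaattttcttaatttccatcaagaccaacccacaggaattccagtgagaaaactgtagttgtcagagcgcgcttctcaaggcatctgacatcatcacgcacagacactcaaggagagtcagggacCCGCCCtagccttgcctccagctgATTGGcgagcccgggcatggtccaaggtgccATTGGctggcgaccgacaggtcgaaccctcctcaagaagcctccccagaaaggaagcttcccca
Cyp51 (chr5:4104648-4104947, minus strand): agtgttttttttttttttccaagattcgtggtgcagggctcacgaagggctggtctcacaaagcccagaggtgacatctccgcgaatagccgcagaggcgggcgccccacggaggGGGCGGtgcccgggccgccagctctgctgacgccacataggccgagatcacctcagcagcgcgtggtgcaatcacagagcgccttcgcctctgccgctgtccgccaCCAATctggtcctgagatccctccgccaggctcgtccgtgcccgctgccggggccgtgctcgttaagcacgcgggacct
Scp2 (chr4:108118498-108118797, minus strand): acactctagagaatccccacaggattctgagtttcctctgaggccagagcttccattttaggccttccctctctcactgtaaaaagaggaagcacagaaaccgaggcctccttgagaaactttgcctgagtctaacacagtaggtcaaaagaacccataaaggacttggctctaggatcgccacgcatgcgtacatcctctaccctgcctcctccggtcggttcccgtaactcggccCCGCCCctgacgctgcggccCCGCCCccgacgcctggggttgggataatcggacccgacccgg

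The sterol element was found in 1 of 27 member genes, beside 1.44% of all genes in the table, at position -137 from the start of Hmgcs1. The NF-Y box, whose factor works next to SREBP at many sterol genes, was found in 22 of 27 member genes, beside 41.1% of all genes, and the GC box, bound by Sp1, in 21 of 27, beside 38.2%. A gene counted if any of its windows held a match, and the 27 include Soat1. By window the NF-Y box was in 23 of 35, beside 37.4%, and the GC box in 25 of 35, beside 35.7%. The background was not matched for expression level. Hmgcs1 carried 4 NF-Y boxes and 3 GC boxes, Idi1 2 and 1, Cyp51 1 and 1, and Scp2 0 and 2. A match describes letters in a window and not a bound site. Nor does a window without a match show that a gene lacks a sterol element. Only the string TCACNCCAC was searched, and only within these windows.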

How the data were processed

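RNA from 16 mouse samples was hybridised to 1-colour Affymetrix arrays, in 4 groups of tissue by genotype. The deposited values are log2 expression per probe set, made by the authors with RMA in Affymetrix Expression Console 1.2 per the submitters' processing notes; RMA equalises the distribution of values over arrays and so removes any shift shared by most genes. For the genome build behind the probe sets, the sources used here give none. Array medians lay between 7.45 and 7.65, and no 2 arrays were duplicates (highest correlation 0.995). Precision is limited by how many arrays there are.

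The table held 35556 probe sets, 21789 of them with 1 gene symbol, 1621 with several and 12146 with none; those with 1 symbol were used, the brightest per gene over all arrays, which gave 19938 genes (999 had several probe sets). Symbols were checked by Entrez identifier against a RefSeq gene table, in which 21698 were found and 0 changed. A single limma 3.58.1 model (R 4.3.3) covered the 16 arrays (lmFit, eBayes, group means, no covariate, 12 residual and 4.34 prior degrees of freedom). Tests were two-sided, with Benjamini-Hochberg adjustment over all genes of a contrast and a threshold of 0.05. The fit was tested on simulated data. Members, lists and tests were chosen with earlier results of these data known. Values on every array are given for Scp2, for the 2 members of each role with the widest tissue difference in controls, and for the 3 members with the lowest p in each genotype contrast; those of Cyp46a1, Npc2, Hmgcs1 and Cyp51 were added after values were seen. Alternatives were another normalisation, variance model, filter, probe set rule or threshold, array weights, a replicate block, fits of fewer groups, leaving out arrays and, added after the data were seen, a covariate for the strongest within-group component. Promoter windows came from RefSeq.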

Additional observations from a re-analysis of the deposited data

How the results depend on the processing

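Member counts in both genotype contrasts and their difference were 0 under every alternative run. In the control tissue comparison, 7 members were lower in OB, and 4 without SEZ control replicates 2 and 4. In cKO mice, 4 members were higher and 5 lower: 2 were higher without cKO replicate 1 of both tissues; 2 were lower with only the arrays of the 2 groups compared, without cKO replicate 3 of both tissues, and without cKO replicate 1 of both tissues, 3 with arrays centred on their medians, and 8 with a covariate for the strongest within-group component, chosen after the data were seen. Leaving out each array in turn gave 2 to 7 lower. Over all genes, the cKO tissue comparison fell from 1993 higher and 2621 lower to 1309 and 1687 without cKO replicate 1 of both tissues. The 9 genes lower in OB cKO became 3 with only the arrays of the 2 groups compared, 5 with cyclic loess, 5 without SEZ control replicates 2 and 4, 2 without cKO replicate 3 of both tissues, 5 without cKO replicate 1 of both tissues, 28 with the component and 2 to 9 on leaving out single arrays. With the component 4 genes were lower in SEZ cKO, against 0, and 1 was lower in the difference between tissues, against 0. The 1 gene higher in that difference became 2 with array weights, 0 without SEZ control replicates 2 and 4, without cKO replicate 3 or without cKO replicate 1 of both tissues, and 0 to 2 on leaving out single arrays. The component was computed from deviations about the group means. As a covariate it therefore left the estimates unchanged and took up within-group spread. Calls gained with it were favoured by construction and are no support for those genes. The cause of the other moves was not tested.

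Same-numbered samples of the 2 tissues deviated together with correlations from -0.06 (cKO 1) to 0.57 (control 3), 7 of 8 above 0.1, and 5 of 8 correlated best with their own number; because cKO 1 did not exceed 0.1 and the labels do not say that a number marks an animal, the numbers were not taken as pairs. With a replicate block (correlation 0.184), 4 members were higher and 8 lower in OB of controls and 5 higher and 7 lower in cKO, and 0 were called between genotypes. The block added calls for Srebf1 in controls (adjusted p = 0.0340) and for Abca1 (0.0395), Npc1 (0.0368) and Scap (0.0424) in cKO. The difference between the genotype effects could not be fitted on 2 groups, and Scp2 was below the filter that keeps genes above the median level. No member's array values lay far from its group by Dixon's test, in 66 groups of 5 tested.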
